A study of Mus musculus with 8 samples.

Results

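The regions described here are stretches of mouse autosomes covered by a peak of trimethylated histone H3 lysine 36 (H3K36me3) in all 4 immunoprecipitated libraries, 2 from cells given GFP and 2 from cells given Cre, when each library was called against input DNA. A region had to be covered at every base in all 4 peak lists and to be 200 bp or longer. There were 3463 such regions on the 19 autosomes, of 5124 intervals of any length covered in all 4 lists, and they held 1.41 Mb, which was 89.9987% of the 1.57 Mb of those intervals. They are called shared regions below. The regions were chosen by the peak positions in these 4 Input lists, so their presence in those lists is not a result, and their widths and scores there are given as a description with no test.

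The libraries came from bone marrow stromal cells (BMSCs) of C57BL/6J mice that carry a floxed Setd2 allele (Setd2 fl/fl), in every group. At passage 2, the cultures received lentivirus carrying GFP (called WT) or Cre, the recombinase that cuts out the floxed part (called KO), and selected with puromycin at 2 µg/ml for 4 days. Chromatin was fixed with formaldehyde at 1% for 10 min, and each genotype had 2 H3K36me3 libraries, each called once against an Input control and once against an IgG control. Nothing in the labels ties the 2 libraries of each genotype to different cultures, so p-values measure only the spread between these libraries, which may be technical. The share of cells in which Cre acted is not given in the sources used here, and fewer cells with the mark and less mark per cell cannot be told apart in such bulk chromatin.

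H3K36me3 is laid down along the bodies of transcribed genes by SETD2, which travels with elongating RNA polymerase II, and it usually increases towards the gene's end. The mark is read by proteins that guide DNA methylation, splicing and repair. Arrays of C2H2 zinc finger genes are known for H3K36me3 together with H3K9me3 over their finger exons, and 5S ribosomal RNA genes are transcribed by RNA polymerase III, outside the usual route of the mark.

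Few shared regions reached the start of a gene. A shared region touched 19 of the 31396 autosomal promoter windows of RefSeq, each from 250 bases before to 50 bases after an annotated start, which is 0.0605% of them. Regions covered in both WT lists touched 859 windows (2.74%) and those covered in both KO lists touched 117 (0.373%). Per 1000 regions these were 5.49 windows for the shared regions, 4.84 for both WT lists and 6.87 for both KO lists. In the 250 bases before the start, touched windows had a median GC content of 49.2%, against 52.4% over all windows, and a median of 4 CG dinucleotides in place of 6. The 250 bases before the start are shown for 4 of these genes, read 5′ to 3′ along the gene's strand from RefSeq on GRCm38.p6, with the bases inside a shared region in capitals.

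The first lies before LOC115488002, an annotated protein-coding gene, on the plus strand at chr12:18648740-18648989, and is shown because it is wholly inside a shared region and carries a repeat. The second lies before the long non-coding RNA gene Gm38639 on the minus strand at chr13:62553937-62554186, inside one of the zinc finger gene groups described below. The third lies before the long non-coding RNA gene 4930455C13Rik on the minus strand at chr10:21342056-21342305. These 3 regions were also covered in all 4 lists called against IgG. The fourth lies before Itga9, which encodes an integrin subunit, on the plus strand at chr9:118711442-118711691, and is shown because its region was under no IgG peak.
LOC115488002: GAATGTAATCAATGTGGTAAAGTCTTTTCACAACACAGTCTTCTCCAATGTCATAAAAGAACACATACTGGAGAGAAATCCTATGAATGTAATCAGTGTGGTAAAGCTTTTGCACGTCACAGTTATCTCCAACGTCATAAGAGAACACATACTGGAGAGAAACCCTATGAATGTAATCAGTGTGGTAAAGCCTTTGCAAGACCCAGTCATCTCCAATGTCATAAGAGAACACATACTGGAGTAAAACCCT
Gm38639: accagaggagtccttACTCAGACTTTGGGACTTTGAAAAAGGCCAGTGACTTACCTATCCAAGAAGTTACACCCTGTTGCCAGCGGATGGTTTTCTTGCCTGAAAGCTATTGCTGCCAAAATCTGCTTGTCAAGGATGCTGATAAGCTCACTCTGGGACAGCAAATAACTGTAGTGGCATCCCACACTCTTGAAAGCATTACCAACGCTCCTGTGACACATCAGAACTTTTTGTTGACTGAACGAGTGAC
4930455C13Rik: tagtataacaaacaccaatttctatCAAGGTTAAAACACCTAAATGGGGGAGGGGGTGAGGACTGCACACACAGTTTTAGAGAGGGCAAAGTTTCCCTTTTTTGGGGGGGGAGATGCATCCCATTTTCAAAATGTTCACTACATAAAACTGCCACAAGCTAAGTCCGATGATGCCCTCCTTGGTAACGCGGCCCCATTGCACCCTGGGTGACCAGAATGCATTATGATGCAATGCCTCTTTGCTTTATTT
Itga9: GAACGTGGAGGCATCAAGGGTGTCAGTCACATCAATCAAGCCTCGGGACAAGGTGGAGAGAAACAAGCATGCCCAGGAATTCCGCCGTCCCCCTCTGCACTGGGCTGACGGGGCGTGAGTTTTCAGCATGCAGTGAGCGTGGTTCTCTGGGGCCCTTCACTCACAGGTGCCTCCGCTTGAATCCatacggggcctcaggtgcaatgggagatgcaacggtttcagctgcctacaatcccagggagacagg

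In the LOC115488002 stretch the run GAATGTAATCA stood at positions 1, 85 and 169, counted from its 5′ end, and the run CATACTGGAG at positions 64, 148 and 232. Both recur every 84 bases, which is the length of DNA that codes for 1 C2H2 finger and its linker. The 12-base motif ACTGGAGAGAAA, which codes for the conserved start of the linker between neighbouring fingers and overlaps the second run, had 2 copies there. The runs and the motif were read off this stretch, so their presence in it is not a result. On either strand the motif was present in 11 of the 31396 promoter windows (0.0350%), the LOC115488002 window included, of which 3 held more than 1 copy. The shared region there was 493 bp long, and the peaks that held it had scores of 166.1 and 277.41 in WT against 41.77 and 49.84 in KO. The score is the value the authors gave each peak, on a scale not given in the sources used here. At Itga9 the scores were 19.36 and 51.32 in WT and, in KO, 109.26 and 32.88. Scores of different lists are printed side by side and not compared.

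Shared regions were short. Their lengths ran from 200 to 3279 bp with a median of 368 bp, and 743 (21.5%) were 500 bp or longer. Only 34 reached 1000 bp. At the length threshold, 96 regions were less than 10 bp above it, among them stretches in Nav1 (chr1:135653078-135653277) and 3300002I08Rik (chr2:150348048-150348247) and one outside genes (chr2:97702388-97702587), each of 200 bp. Of the 1661 shorter intervals, 75 had 190 bp or more, among them 199 bp in the zinc finger gene Zfp712 (chr13:67041499-67041697), in Gm51425 (chr17:17032713-17032911) and outside genes (chr2:5780995-5781193).

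The peaks holding them differed between the genotypes in width. The median peak around a shared region was 1225 and 1177 bp wide in the WT libraries against 602 and 614 bp in the KO libraries. The medians over all autosomal peaks were 693 and 672 bp in WT and 566 and 569 bp in KO. A shared region filled a median of 31.6% and 32.4% of its WT peak and 60.8% and 59.4% of its KO peak. Within its own list the holding peak stood at a median score percentile of 87.3 and 87.2 in WT against 72.8 and 76.1 in KO. Of the shared regions 44.9% and 44.5% lay in peaks within the top 10% of scores in the WT lists, and 36.5% and 35.9% in the KO lists. At the median, shared regions thus were sections of wide WT peaks and most of the width of narrower KO peaks. The median holding peak also scored above the median of its list in each library. This did not hold for every region. With the lower-scoring peaks of each list removed, 1392 regions were left of 3463.

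Against all the covered sequence they were a small share in WT and a larger one in KO. The Input lists covered 238 and 231 Mb of the autosomes in WT and 68.4 and 89.98 Mb in KO. Shared regions were 0.593% and 0.611% of the WT bases, 2.07% and 1.57% of the KO bases, 0.998% of the 142 Mb covered in both WT lists and 19.02% of the 7.44 Mb covered in both KO lists. Of the 177351 regions of 200 bp or longer covered in both WT lists 1.82% held a shared region, and of the 17021 covered in both KO lists 20.2% did. Stretches of the same minimum length present in the other 3 lists and missing from 1 numbered 1512 for WT replicate 1, 1569 for WT replicate 2, 15842 for KO replicate 1 and 12347 for KO replicate 2. A KO list was most often the one that kept a stretch from being shared.

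The label of the cells was checked on the WT coverage of marker genes. The 13 stromal markers had a mean of 44.7% and 42.6% of their spans covered in the WT libraries, with 10 of them at 10% or more in both and Lum and Thy1 at 0. Haematopoietic markers had 25.4% and 28.6%, with 8 of 10 at that level and the B cell receptor gene Cd79a at 0, so genes of blood cells carried the mark too. The 7 endothelial markers had 7.18% and 5.13%, with Tie1 at 0. One of these markers, Fn1 (fibronectin), held a shared region. The part of other cells in the shared regions was not tested.

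Most shared regions lay in protein-coding genes. Of the 3463 regions, 2441 (70.5%) overlapped a protein-coding gene, 280 overlapped another annotated gene alone and 742 (21.4%) lay outside annotated genes. By bases, 71.4% were in protein-coding spans, between the 92.1% of the sequence covered in both WT lists and the 39.3% of that covered in both KO lists, and the autosomes as a whole had 40.0%. Outside annotated genes lay 21.4% of shared bases, 6.44% of the both-WT bases and 50.6% of the both-KO bases. The shares across chromosomes ran from 0.559% of the both-WT bases on chromosome 11 to 1.64% on chromosome 13, next to 1.61% on chromosome 17. The annotation used gave gene spans but no exons, so exonic and intronic positions were not analysed here.

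Within genes they were more frequent towards the end. For the 1937 regions inside a single gene of known strand, the median position was 66.6% of the way from start to end, against 61.9% for regions covered in both WT lists and 56.1% for those in both KO lists. With the gene cut into 10 equal parts, the first held 2.99% of shared regions and the last 3 held 14.97%, 15.6% and 15.6%. Of the both-KO regions, 6.11% were in the first of these parts and 12.2% in the last. The strand came from the promoter table and was known for 79.6% of protein-coding genes.

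**Figure D1:**
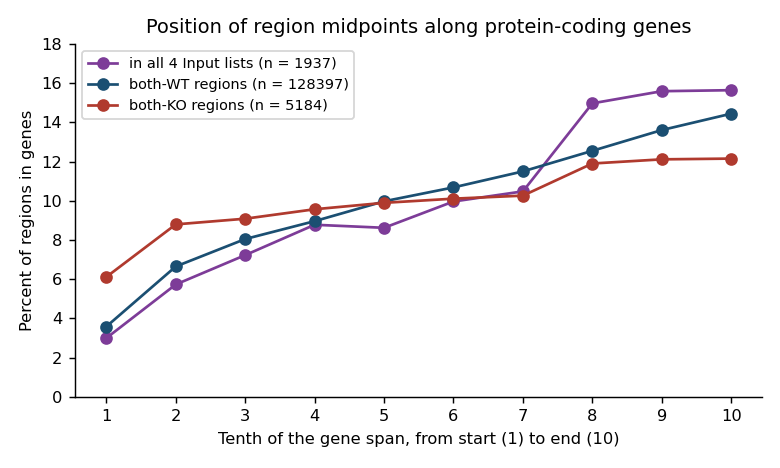
Position along the gene, in 10 equal parts from start to end (x axis), against the percent of regions in each (y axis), for the shared regions, regions covered in both WT lists and regions covered in both KO lists. The shared regions climb from 2.99% in the first to 15.6% in the last.

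A total of 1715 of 20665 autosomal protein-coding genes (8.30%) held at least 1 shared region. These host genes were long, with a median span of 61.1 kb against 17.5 kb over all of them. Of the hosts, 1274 held a single region and 171 held 3 or more. The genes with the most were the zinc finger genes Zfp984 with 18, Zfp978 with 17 and Zfp991 with 14, followed by Gm51425 with 13 and Zfp993 with 10. Itpr2, a calcium channel of the endoplasmic reticulum, and Plcg2, a phospholipase C of immune cell signalling, each held 9, as did 3300002I08Rik.

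Zinc finger genes stood out by count among the gene lists, which were drawn up with earlier results of these data known, so that their choice is not independent of these counts. Of 459 zinc finger genes 155 (33.8%) were hosts, and they held 360 shared regions (10.4% of all). Shared bases were 4.87% of the both-WT sequence in zinc finger genes, against 0.774% in all protein-coding genes, and 67.2% of the both-KO sequence, against 34.6%. By these shares they were not the highest list. The both-WT share was higher in olfactory and vomeronasal receptor genes (9.08%) and predicted genes (6.23%). The both-KO share was higher in splicing factor (96.8%), housekeeping (79.1%) and histone genes (74.6%). Those both-KO shares rest on 1, 4 and 2 shared regions in that order. The both-WT share of the receptor genes rests on 3 and that of the predicted genes on 110. The median span of the zinc finger genes was 17.9 kb.

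Of the 5 zinc finger hosts with the most regions or the largest share of span inside them, 3 had lower coverage in both KO libraries and 2 higher in the Input lists. Zfp984 (chr4:147753974-147812229) was covered over 79.4% and 78.5% of its span in WT against 34.3% and 42.4% in KO. Zfp991 (chr4:147132093-147180579) had 78.6% and 77.9% in WT against 37.7% and 46.6% in KO. Both KO values lay below both WT values in each of these genes. Zfp978, which spans 267146 bp of the same chromosome and overlaps Zfp991, had 20.3% and 18.1% in WT against 28.3% and 26.0% in KO, with both KO values above. Zfp993 had 8.40% and 9.29% in WT against 9.63% and 11.5% in KO, again with both KO values above but by little. Zfp709 on chromosome 8, with 22.4% of its span inside 4 shared regions, had 73.8% and 80.1% in WT against 50.6% and 44.5% in KO. Against IgG both KO values were also below both WT values in Zfp984, Zfp991 and Zfp709. Zfp978 and Zfp993 did not keep their Input order there. Zfp993 had 8.70% and 10.18% in WT against 3.14% and 4.40% in KO, with both KO values below. Zfp978 had 17.84% and 14.75% in WT against 14.99% and 13.91% in KO, and the genotypes overlapped. Zinc finger genes share long stretches of near-identical sequence, and how reads with more than 1 match were placed is not given in the sources used here, so the assignment to single genes is uncertain.

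The share of hosts differed among the other gene lists, beside the 8.30% over all protein-coding genes. None of the 77 cytosolic ribosomal protein genes held a shared region, and 47.1% of their summed span was covered in both WT lists. These genes are short, with a median span of 3.175 kb against 17.5 kb over all protein-coding genes. Whether their length accounts for the absence was not tested. Of 68 splicing factor genes only Snrpe, an Sm core protein, held a shared region. In the list of H3K36 writers, erasers and readers 5 of 33 genes (15.2%) were hosts, among them Sp140, Setd2 and Nsd2, and of 11 H3K4 methyltransferase complex genes Rbbp5 and Kmt2a (18.2%) were. Of 1471 olfactory and vomeronasal receptor genes 3 were hosts, namely Vmn2r29, Olfr646 and Olfr316. Of 57 protocadherin genes 10 counted as hosts, all through 1 shared region in the overlapping spans of the chromosome 18 cluster.

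Of 28 stromal genes 3 (10.7%, against 8.30% over all protein-coding genes) were hosts, Fn1, Acta2 (smooth muscle actin) and Postn (periostin). Fn1 had 77.4% and 74.9% of its span covered in WT against 6.63% and 16.3% in KO. Acta2 had 66.6% and 51.8% against 7.23% and 18.7%, and Postn 44.0% and 33.8% against 1.52% and 7.94%. In the Input lists the genotypes did not overlap in any of the 3. The lists against IgG covered none of Acta2 in any library, 0% of Fn1 in both WT libraries against 0.873% and 2.58% in KO, and 2.96% and 11.6% of Postn in WT against 1.52% and 5.80% in KO. The WT coverage of Fn1 and Acta2, and most of that of Postn, was thus present under the Input control alone. Runx2, the osteoblast transcription factor, was the only host of 15 osteoblast genes, and Lpl and Cd36, of lipid uptake, were the hosts among 18 adipocyte genes. Thbs1 (thrombospondin 1), Col18a1 and Col12a1 were the hosts among 27 collagen and matrix genes. Of 27 haematopoietic genes Laptm5 alone was a host, and of 12 endothelial genes none. The hosts among the housekeeping genes included Eef2, a translation elongation factor, and Tbp, the TATA-binding protein. Eef2 had 83.6% and 90.1% in WT against 15.5% and 33.4% in KO in the Input lists and 0% in all 4 lists against IgG.

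Some small genes lay mostly inside a shared region, which by the rule sets most of their coverage. The histone H4 gene H4c1 (chr13:23760795-23761249) was covered over 72.5% and 71.9% of its span in WT against 76.3% and 72.3% in KO, and H4f16 (chr6:136803993-136804431) over 81.6% and 76.5% in WT against 81.6% and 76.1% in KO. None of the 4 lists called against IgG covered any base of either gene. Of 79 histone genes, H4c1 and H2bc6 were the hosts in the list, which does not hold H4f16. The class I major histocompatibility genes H2-Q6 and H2-Q7 were covered further outside their shared regions in WT, with 84.7% and 85.4% in WT against 23.2% and 26.2% in KO for H2-Q6, and 79.6% and 79.8% against 37.6% and 42.8% for H2-Q7. Histone H4 copies and H2-Q genes are near-identical to their neighbours in sequence, and their separate values are uncertain.

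Setd2 itself held 1 shared region of 524 bp at chr9:110547551-110548074, 15.1 kb after the gene's start. The peaks that held it scored 106.49 and 469.24 in WT against 28.85 and 55.87 in KO, and all 4 lists against IgG covered it whole. With that region and 1 kb on each side left out, 65.6% and 59.5% of Setd2 was covered in WT against 0% and 0.898% in KO, a difference of -62.1 percentage points (limma, adjusted p = 0.000194). Coverage of the gene by peaks is no check of the deletion of its floxed exons.

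Shared regions occurred in groups. When those within 50 kb of each other were joined, they formed 2441 loci, of which 1975 had a single region. Only 53 loci had 5 or more, and these held 511 regions (14.8%). Of the 53, 34 (64.2%) overlapped a zinc finger gene of the list. The 10 loci with the most held 205 regions (5.92%).

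The locus with the most regions was a zinc finger group on chromosome 17 (chr17:16966544-17321218), with 44 shared regions over Zfp960, Zfp97, Gm51425, Gm5165 and their neighbours. Its coverage was 44.6% and 42.3% in WT against 18.9% and 22.3% in KO. Against IgG it was 37.1% and 39.6% in WT against 14.6% and 14.2% in KO. The genotypes did not overlap under either control. The group of Zfp984 and Zfp933 on chromosome 4 (chr4:147754069-147839612) had 21 regions, with 68.6% and 67.2% covered in WT against 27.1% and 38.5% in KO. That of Zfp978 and Zfp991 (chr4:147140102-147185884) had 17 and the highest KO coverage of the 10 loci, with 46.9% and 50.1% against 78.3% and 82.9% in WT.

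The remaining loci with the most regions were similar. On chromosome 10, Zfp873 and its neighbours (chr10:81999405-82154326) had 19 regions and Zfp781 and its neighbours (chr10:81821806-81926830) had 12. On chromosome 9, Zfp599, Zfp809, Zfp810 and Zfp872 (chr9:22173492-22284479) had 12, and Zfp809 is known as a silencer of retroviral elements. On chromosome 13, Zfp934 and 6720489N17Rik (chr13:62518748-62675655) had 12, and this locus holds the Gm38639 stretch printed above. The pseudogene Znf41-ps on chromosome 4 (chr4:145786861-145840502) and B230307C23Rik on chromosome 16 (chr16:98005213-98068897) had 14 each. In these 6 loci KO coverage ran from 12.9% to 45.4% and WT coverage from 34.3% to 80.7%, and both KO values were below both WT values in each.

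**Figure D2:**
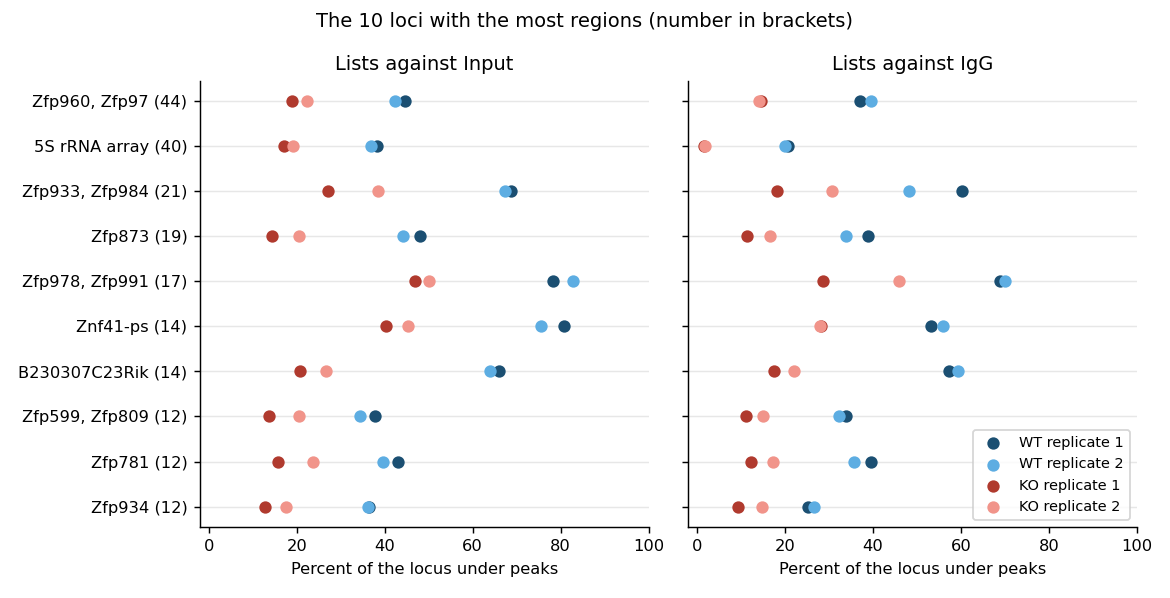
Percent of the locus under peaks called against Input (left) and against IgG (right) for the 10 loci with the most shared regions (their number in brackets), with 1 point for each of the 4 libraries. In every locus and under both controls both KO points lie below both WT points, and in the Input lists the chromosome 8 locus of 5S genes has 17.1% and 19.3% in KO.

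The chromosome 8 locus (chr8:123494979-123623818) differed from the others, since 37 of its 40 regions lay in the array of 5S ribosomal RNA genes. The array (chr8:123538784-123622046) spans 83.3 kb and has 50 annotated 5S genes and gene copies, of which 37 overlapped a shared region. Neighbouring shared regions in it were a median of 1704.5 bp apart and neighbouring 5S genes 1698 bp. The regions in the array were 299 to 342 bp long. Input peaks covered 22.3% and 19.2% of the array in WT against 22.8% and 25.4% in KO, with both KO values above both WT values. The 37 regions are covered in every Input list by the rule, which fixes part of this coverage. These values are therefore a description with no test. No base of the array was under an IgG peak in any of the 4 libraries. In the whole locus, whose remainder holds protein-coding genes, coverage was 38.1% and 36.8% in WT against 17.1% and 19.3% in KO. The copies of the 5S unit are near-identical, so that reads cannot be assigned to single copies with certainty.

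**Figure D3:**
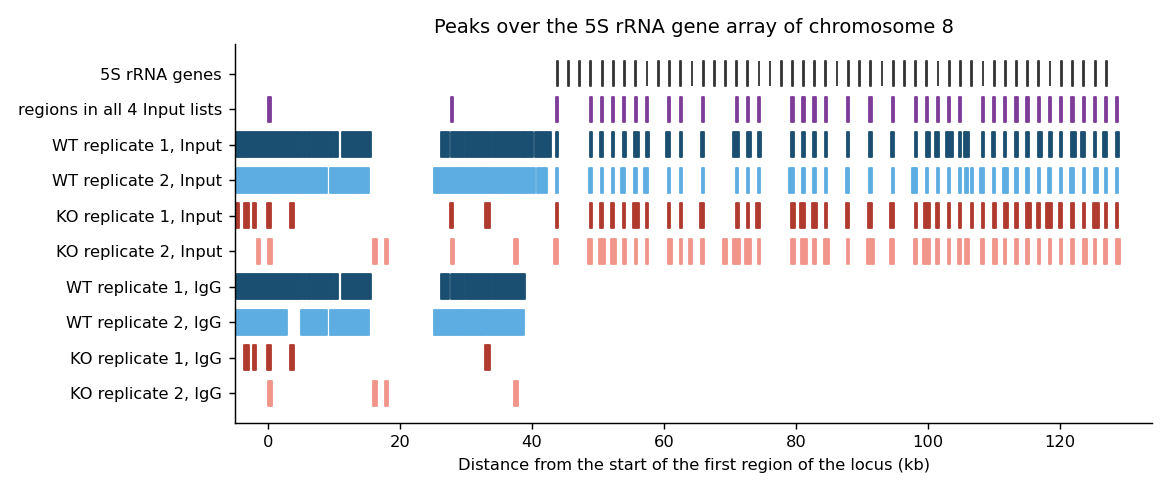
Distance along the chromosome 8 locus (x axis, kb from the start of its first shared region) with the 5S ribosomal RNA genes, the shared regions and the Input and IgG peaks of the 4 libraries as bars. Along the 5S genes peaks recur in all 4 Input rows, with shared regions 1704.5 bp apart at the median, and the IgG rows are empty there.

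Other short RNA genes followed at lower frequency. Of 61 autosomal ribosomal RNA genes 41 (67.2%) were touched by a shared region, 37 of them among the 48 on chromosome 8 and 4 among the 13 elsewhere. All 41 were touched by regions without IgG coverage. Regions covered in both KO lists touched 41 of the 61 and those in both WT lists 42. Of 391 transfer RNA genes 7 (1.79%) were touched, among them n-TLcag4 and n-TLcag5 on chromosome 8, chosen for naming after their values were seen, and all 7 lay under regions without IgG coverage. Of 931 small nuclear RNA genes 8 were touched, and of 919 microRNA hairpins none was.

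The lists called against IgG were not used in choosing the regions, but they come from the same immunoprecipitated libraries, so they check the control and not the immunoprecipitation. IgG peaks covered 61.9% and 61.7% of the shared bases in WT against 54.9% and 52.3% in KO. The means were 61.8% ± 0.178 (SD, n = 2) and 53.6% ± 1.85 (SD, n = 2), a difference of -8.16 percentage points, and the groups did not overlap (exact two-sided permutation p = 0.333, the smallest that 2 libraries against 2 allow). Regions covered in both WT lists had 82.9% and 83.1% in WT against 3.57% and 4.46% in KO. Those covered in both KO lists had 20.2% and 19.8% in WT against 61.5% and 58.8% in KO. The shared regions alone were required to have Input peaks in both genotypes, and the IgG peaks share their libraries, so the order of the 3 sets follows from how they were chosen.

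By single regions, 1228 of 3463 (35.5%) had at least 50% of their bases under IgG peaks in all 4 libraries. The same held for 0.321% of the both-WT regions and 7.68% of the both-KO regions. At the other end, 993 shared regions (28.7%) reached that level in no library, against 10.5% of the both-WT and 25.4% of the both-KO regions. The other 1242 reached it in 1 to 3 libraries, of which 351 did so in both WT and no KO library and 159 in both KO and no WT library. The share that reached it in no library was thus near that of the both-KO regions.

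The IgG lists separated the regions by location. In zinc finger genes 195 of 360 regions (54.2%) were covered in all 4 IgG lists and 13 (3.61%) in none. In other protein-coding genes 838 of 2081 (40.3%) were covered in all 4 and 394 (18.9%) in none. Outside annotated genes 138 of 742 (18.6%) were covered in all 4 and 438 (59.0%) in none. IgG peaks covered 83.6% and 79.7% of the bases of the regions in zinc finger genes in WT against 79.8% and 75.8% in KO, and the genotypes overlapped (exact two-sided permutation p = 0.667). Outside genes the values were 33.8% and 36.1% in WT against 31.4% and 30.2% in KO.

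Regions without IgG coverage also had other Input scores. The 993 had median Input score percentiles of 83.7 and 85.3 in WT against 99.2 and 98.5 in KO. The 1228 covered in all 4 IgG lists had 89.9 and 89.5 in WT against 58.3 and 66.5 in KO. Of the 340 shared regions within the top 10% of scores in all 4 Input lists, 249 (73.2%) had no IgG coverage, against 23.8% of the other shared regions.

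**Figure D4:**
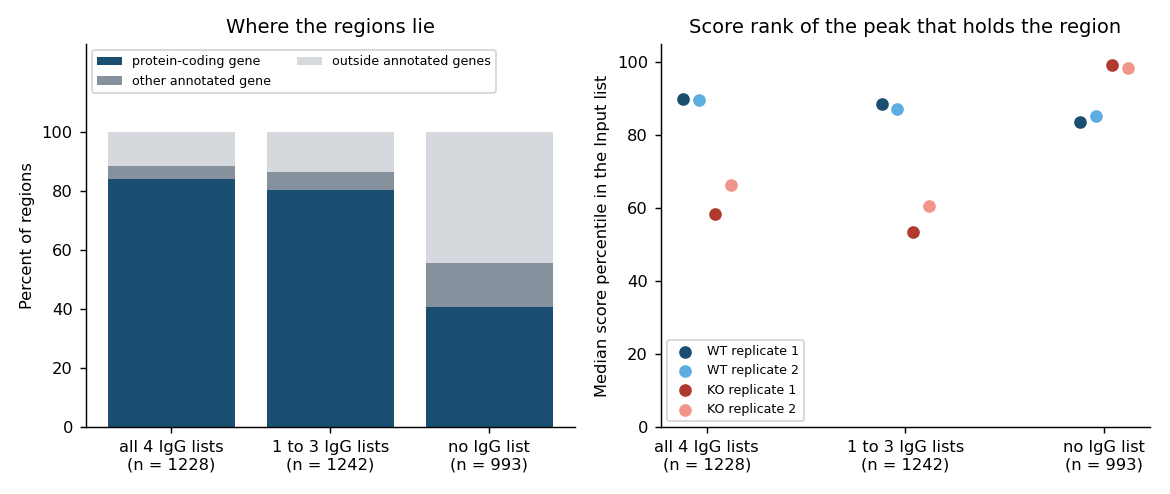
Shared regions split by whether at least 50% of their bases were under IgG peaks in all 4, in 1 to 3 or in none of the libraries, with their locations (percent of regions) and the median score percentile of their Input peaks in each library. Of those under no IgG peaks 44.1% lie outside annotated genes, and their KO score percentiles are 99.2 and 98.5.

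The 5 regions whose lowest score percentile was highest had no IgG peak in any library. They lay in Qpct, an enzyme that cyclises N-terminal glutamine, Adcy1, an adenylate cyclase, the non-coding Gm39317 and Gm34907, and outside genes on chromosome 2 (chr2:57629384-57629833). The region in Qpct (chr17:79087202-79088941) was 1740 bp long and its peaks scored 2458.41 and 2138.76 in WT against 3135.11 and 2220.62 in KO. That in Gm34907 (chr14:103464111-103465005) scored 3100 in each of the 4 lists, which was the highest score of 3 of them and may be an upper limit of the scale.

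Of the 10 longest regions, those in Qpct and Gm39317 have been described above. The longest pair, of 3279 and 3240 bp, lay side by side in Hjurp (chr1:88263809-88267087 and chr1:88267133-88270372), which encodes the chaperone of the centromeric histone CENP-A. Hjurp was covered over 93.8% and 93.4% of its span in WT against 75.6% and 39.0% in KO. The peaks over the first region stood at score percentiles of 99.999 and 99.999 in WT and 75.99 and 63.01 in KO. Over the second region they stood at the same percentiles in WT and at 75.99 and 4.02 in KO. IgG peaks covered both regions whole in each WT library and not at all in either KO library. The KO Input values of Hjurp therefore rest on one control. The 10 longest also held regions in Zfp992, Zfp978, Cenpo, a kinetochore protein, and the pseudogene Znf41-ps. Those 4 were whole under IgG peaks in all 4 libraries.

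Around the shared regions, coverage was lower in KO than in WT at every distance. A region ends where at least 1 of the 4 lists stops, so that the bases directly beside an edge are not independent of the choice, and they are given as a description. Within 200 bp of an edge, Input peaks covered 73.4% and 71.7% of the bases in WT against 44.5% and 46.3% in KO. From 0.5 to 1 kb the values were 47.8% and 46.8% in WT against 7.89% and 10.2% in KO. From 1 to 5 kb they were 37.8% and 36.4% in WT against 5.03% and 6.47% in KO. The last means, 37.1% ± 1.04 and 5.75% ± 1.02 (SD, n = 2 each), differed by -31.3 percentage points, or a KO to WT ratio of 0.155, without overlap (exact two-sided permutation p = 0.333, the smallest possible). The lists against IgG gave 29.9% and 28.6% in WT against 2.94% and 3.83% in KO over the same distance. In the same band around other both-WT regions the coverage was 11.2% and 10.4% in WT against 2.86% and 3.66% in KO. That band leaves out the other both-WT regions themselves, while the band around shared regions can hold them. The WT values of these bands are therefore not alike and are not compared. Over all autosomes the Input lists covered 9.69% and 9.41% in WT against 2.78% and 3.66% in KO.

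**Figure D5:**
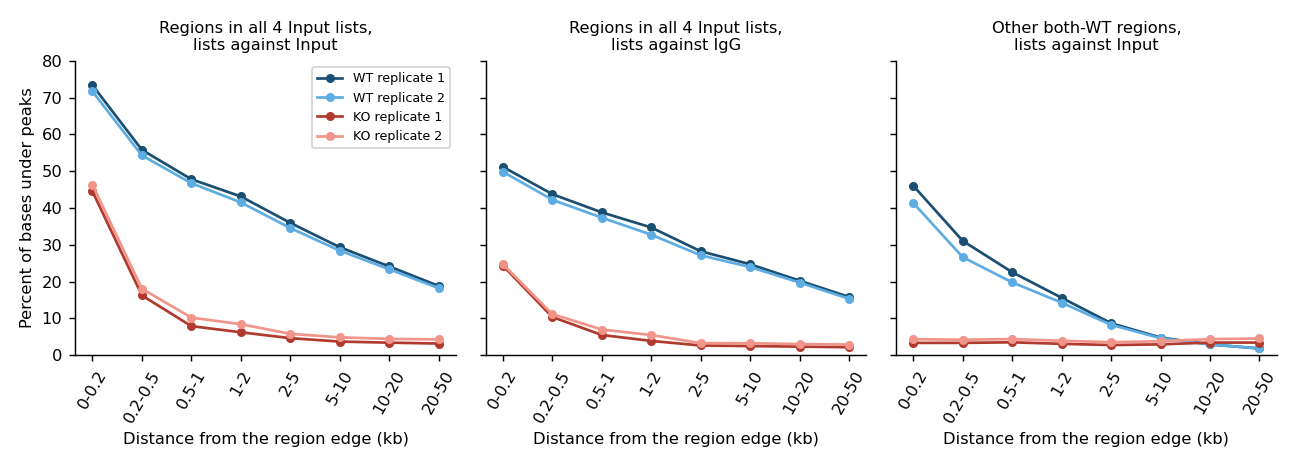
Percent of bases under peaks (y axis) against distance from the region edge (x axis, kb), for shared regions in the Input lists (left) and IgG lists (middle) and for other regions covered in both WT lists (right), with 1 line for each of the 4 libraries. The right panel leaves out the both-WT regions it is drawn around, so its WT level is not comparable with that on the left. On the left, WT lines go from 73.4% and 71.7% next to the edge to 18.8% and 18.2% at 20 to 50 kb, and KO lines go from 44.5% and 46.3% to 7.89% and 10.2% at 0.5 to 1 kb and 3.16% and 4.27% at 20 to 50 kb.

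The rest of the host genes was compared in one fit over all autosomal protein-coding genes, leaving out shared regions and 1 kb on each side of them. Coverage of the remaining span fell in KO in 1325 of 1351 host genes tested (98.1%), rose in 3 and did not pass the test in 23 (limma, Benjamini-Hochberg adjusted p under 0.05). Over all 10294 genes tested, 95.3% fell and 0.408% rose. The median difference was -43.9 percentage points in hosts and -48.7 over all. Of 1715 hosts 1706 had 1 kb or more left, and the test took those with a mean coverage of at least 10%. The median KO coverage of tested hosts was 3.78%, against 49.1% in WT, so that most genes passed this filter through WT and their fall is in part fixed by it. Without the filter 1392 of 1697 hosts (82.0%) and 10457 of 17227 genes (60.7%) fell. Among the 146 zinc finger hosts tested 139 fell and 1 rose. When each library was divided by its mean gene coverage and brought to a common mean, 286 hosts fell and 59 rose, and over all genes 4195 fell and 241 rose, while the median difference became -6.42 scaled points in hosts and -15.96 over all.

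The deepest falls among hosts reached nearly the whole gene. 1700109H08Rik went from 95.6% and 95.1% in WT to 14.2% and 0% in KO, a difference of -88.2 percentage points (limma, adjusted p = 0.000314), which without either WT library no longer passed (adjusted p = 0.0638 and 0.0631). Trrap, a scaffold of histone acetyltransferase complexes, went from 93.4% and 90.5% to 6.31% and 3.81%. Gtf3c1, a subunit of the RNA polymerase III factor TFIIIC, went from 91.1% and 89.4% to 4.87% and 2.73%. The telomerase-associated Tep1 went from 87.2% and 88.1% to 2.05% and 3.83%. The other 6 of these 10, namely Gmip, Acox3, Secisbp2, Phrf1, Cog2 and Mief1, had differences from -84.96 to -86.5 percentage points. These 10 were picked by the size of their fall, so the lack of overlap between the genotypes in them follows from the choice. After scaling to mean gene coverage, all 10 stayed lower in KO, but 6 no longer passed, with adjusted p of 0.827 in 1700109H08Rik, 0.165 in Trrap and Gmip, 0.074 in Gtf3c1, 0.341 in Secisbp2 and 0.241 in Mief1.

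The 3 hosts that rose in the Input lists were Gm2808, Gm10471 and Zfp978. In the lists against IgG 0 of 1253 hosts tested rose, but none of the 3 was among those tested. Their rise was thus not tested against IgG. Gm2808 had 9.78% and 11.3% in WT against 39.9% and 31.1% in KO (limma, adjusted p = 0.00406). Zfp978 had 11.3% and 8.49% in WT against 24.1% and 21.0% in KO (adjusted p = 0.00808), outside its 17 shared regions. Gm10471 had 12.2% and 0% in WT against 21.4% and 24.6% in KO (adjusted p = 0.0319). Without either WT library none of the 3 passed the test, with adjusted p from 0.0557 to 0.151. The 5 smallest falls were in Sorl1, Cd300lb, Melk, Cgnl1 and Tiam1. Their differences ran from -6.91 percentage points in Sorl1 (adjusted p = 0.0295) to -9.19 in Tiam1. Without either KO library none of the 5 passed, with adjusted p from 0.0890 in Cgnl1 upwards to 0.233 in Cd300lb, and with the replicate block Sorl1, Cd300lb and Melk did not (adjusted p = 0.106, 0.114 and 0.0684). After scaling to mean gene coverage all 5 were higher in KO.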

How the data were processed

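H3K36me3 was measured by ChIP-seq in 4 libraries, 2 for each genotype, each with a list called against Input and one against IgG, giving 8 lists. Per the submitters' processing notes Bowtie2 and GRCm38 were used, with no version or role stated. Peak caller and settings: not given in the sources used here. Each list gives deposited intervals and the authors' score per peak, ranked only within its list, and no counts, so sequencing depth is unknown and no counting interval is given.

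Peaks of each list were merged, and the 4 Input lists were intersected on the autosomes with a minimum of 200 bp. Genes and promoter windows came from RefSeq on GRCm38.p6. The percent of each gene under peaks, outside shared regions and 1 kb beside them, was fitted with limma 3.58.1 in R 4.3.3 (trend and robust), for genes with 1 kb left and a mean of at least 10%. The fit was tested on simulated data. Single values had exact permutation tests in scipy 1.17.1. Python 3.11.15, numpy 2.4.6, pandas 2.3.3 and matplotlib 3.10.9 were used.

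Named were the 10 longest regions, the 5 with the highest lowest score percentile, 3 on each side of the length threshold, the 10 loci with the most regions, the 10 hosts with the most regions and with the largest share of span, the 10 largest falls, rises or the 5 smallest falls, up to 3 hosts per list, and Setd2. Regions and lists were chosen with earlier results of these data known. Some listed genes are not reported here. Alternatives were the minimum length, the score, the control, the filter on coverage, the mask, scaling, the replicate block and leaving out each library.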

Additional observations from a re-analysis of the deposited data

Results flagged for a closer look

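The same rule applied to the sex chromosomes, which the shared regions leave out, found 38 regions on X and 42 on Y. Those on X held 14.2 kb and those on Y 12.8 kb. On X they overlapped 22 annotated genes, among them Flna, a filamin, Pgk1, a glycolytic enzyme, and the zinc finger genes Zfp182, Zfp275 and Zfp280c. On Y they overlapped Gm18798 and Uba1y-ps1. These intervals drew attention because they lie in data outside the comparisons above. They were not compared between genotypes.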

How the results depend on the processing

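The number of shared regions, 3463, depended on the rule. It was 743 with a minimum of 500 bp, 1392 with peaks at or above their list's median score, 1359 with the lists against IgG, and 5020 to 18665 without one library. The protein-coding share of bases, 71.4%, was 76.6%, 65.9%, 81.0% and 63.2% to 86.4% in the same order. The direction of the flank and IgG differences held in each alternative run that gave a value, and 2 libraries a group cannot reach p under 0.333 there.

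Of the gene counts, no coverage filter gave 469 of 17227 genes and 10 of 1697 hosts higher in KO, with 10457 (60.7%) and 1392 (82.0%) lower. A filter of 25% gave 748 hosts and 5724 genes lower, and 0 hosts and 7 genes higher. Scaling to mean coverage gave 286 hosts and 4195 genes lower, and 59 and 241 higher. Against IgG 14 genes and 0 hosts were higher, and with high scores 10 and 0. The 3 hosts higher in the main fit were not among the genes tested in either of these runs. Without one library the host counts were 1010 to 1317 lower and 0 to 2 higher, and those of all genes 7699 to 9687 and 20 to 82. After scaling, Sorl1 was at 28.7, Cd300lb at 28.6, Melk at 24.95, Cgnl1 at 19.9 and Tiam1 at 24.1 scaled points higher in KO, where scaled values can pass the whole span. The cause was not tested.

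Libraries of the 2 genotypes share only a replicate number, with a correlation of deviations of -0.0169 that is the same for both numbers by construction. With the replicate block 1323 hosts and 9870 genes were lower and 3 and 47 higher, and the sign-flip p of single values was 0.5, the smallest possible. Of the 244 alternative values, 175 were labelled as the same as the main value. For the named genes this means that direction and call were kept. For the counts of called genes it means only a count close to the main count, and the remaining values had limits of their own. The lists hold no reads, so depth limits could not be computed.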
